A study of Mus musculus with 6 samples.

Results

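Egr1, Egr2, Egr3, Klf2, Klf4, Klf6, Ier2, Ier3, Nr4a1 and Dusp1 are immediate early genes, and their RNA was followed in cultured mouse microglia, the resident macrophages of the brain. They are 10 of 36528 gene identifiers in the files, taken by name from the EGR, KLF, IER, NR4A and dual-specificity phosphatase families with earlier results of these data known. All 10 passed the filter on low counts, which left 15585 genes for testing. The study sequenced polyadenylated RNA of 6 libraries in 3 groups of 2, all labelled as brain microglia in vitro. The control group was wild type and untreated (WT_untreated). The knockout group was also untreated and is labelled as a knockout of Cop1, the gene of a ubiquitin ligase that marks transcription factors such as c-Jun and C/EBP beta for degradation (labelled Loxp_untreated and Cop1 KO microglia). The third group was wild type and treated with LPS, the bacterial lipopolysaccharide sensed through TLR4 (WT_LPS). The labels give no strain, age or sex, no Cre line or other means of deletion, and no LPS dose or duration. They also do not say whether the 2 libraries of a group came from separate animals or cultures, so the p-values below reflect the spread of these libraries alone, and that spread may be technical.

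Immediate early genes are transcribed within minutes of a stimulus without new protein synthesis, by factors already present in the cell, such as serum response factor, CREB and NF-kB, and their RNAs are usually short-lived. Many encode transcription factors that start a second wave of transcription, and others encode proteins that switch the signal off. In macrophages and microglia, LPS reaches these genes through MAP kinases and NF-kB, so the level found depends on the time since the stimulus.

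Libraries held 20568144 to 22553708 counts. Levels below are CPM, counts relative to library size, with library sizes scaled by TMM, a method that aligns the bulk of genes between libraries. Summed microglia markers reached 7855 and 7937 CPM in the untreated, 12318 and 12432 in the knockout and 5811 and 5999 in the LPS libraries, although P2ry12 (mean 6.95 CPM) and Tmem119 (7.13 CPM) were low in untreated cells. Astrocyte markers were not at 0: the 10 summed to 772.1 and 773.1 CPM in the untreated and to 846.3 and 849.9 CPM in the LPS libraries. In the knockout they summed to 34.08 and 34.89 CPM, a 22.4-fold lower level, and all 10 fell, against 30.3% of all genes. Summed neuron markers were 82.24 and 82.63 CPM in untreated and 7.879 and 9.976 CPM in knockout libraries. The 9 cell division genes summed to 356 to 367.5 CPM in untreated libraries and to 112.1 to 114 CPM in the other groups. All 9 fell in the knockout, and with LPS 8 fell and Pcna rose, from a mean of 33.87 to 44.76 CPM. Summed oligodendrocyte lineage markers were 233 and 237.9 CPM in untreated, 131.9 and 133.2 in knockout and 153.9 and 162.7 in LPS libraries. In the knockout 6 of 8 tested fell, with a median log2 fold change of −2.27, and Olig1 went from a mean of 75.9 to 5.218 CPM. Of the others, 1 was not called and 1 rose: Mbp went from a mean of 62.74 to 90.88 CPM. Summed fibroblast markers were 79.6 and 80.33 CPM in untreated, 121.7 and 126.4 in knockout and 83.01 and 83.49 in LPS libraries; Pdgfra is in both lists. Summed dendritic cell markers were 319.9 and 322.5 CPM in untreated, 267.3 and 269 in knockout and 304.6 and 306.5 in LPS libraries. Ccr7 was at 0 in untreated and knockout libraries and at a mean of 7.775 CPM with LPS. Xcr1 went from 0.1924 to 21.48 CPM with LPS. Of 5 tested, 3 rose and 1 fell with LPS, and Itgax went from a mean of 317.9 to 267 CPM. These values stand beside every difference below, and their part in the changes of the 10 genes was not tested. In bulk RNA, fewer cells of a type and less RNA per cell cannot be told apart. Cop1 itself (chromosome 1, 159232156 to 159354872, GRCm38) was at 12.74 and 11.52 CPM in untreated and at 8.059 and 9.226 CPM in knockout libraries, a log2 fold change of −0.49 (SE 0.11, edgeR adjusted p = 0.00016), so its RNA was lower but present; limma on nRPKM did not call it (adjusted p = 0.074 to 0.15). With LPS, Cop1 rose from a mean of 12.13 to 25.26 CPM (log2 fold change 1.06, SE 0.10, edgeR adjusted p = 1.7e-14). The labels do not say which part of the gene was deleted in the knockout.

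Promoters are shown for genes whose RNA moved in different directions. Ier3 and Dusp1 rose with LPS, Klf2 fell with LPS, and Klf6 and Klf4 rose both with LPS and in the knockout. Each line holds the 200 bases before the first transcription start listed by RefSeq (GRCm38.p6), 5′ to 3′ on the strand of the gene. Capitals mark a cyclic AMP response element in Dusp1, an EGR motif in Klf2 and Klf4 and an NF-kB site in Ier3.
Ier3 (chr17:35821513-35821712, plus strand): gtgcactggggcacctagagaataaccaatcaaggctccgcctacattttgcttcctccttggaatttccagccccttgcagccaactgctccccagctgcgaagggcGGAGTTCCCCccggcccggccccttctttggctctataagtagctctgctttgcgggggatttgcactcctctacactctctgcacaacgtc
Dusp1 (chr17:26508473-26508672, minus strand): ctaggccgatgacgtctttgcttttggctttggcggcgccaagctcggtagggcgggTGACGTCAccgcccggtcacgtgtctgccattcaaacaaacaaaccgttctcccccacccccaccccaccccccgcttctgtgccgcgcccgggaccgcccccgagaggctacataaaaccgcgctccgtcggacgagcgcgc
Klf6 (chr13:5861289-5861488, plus strand): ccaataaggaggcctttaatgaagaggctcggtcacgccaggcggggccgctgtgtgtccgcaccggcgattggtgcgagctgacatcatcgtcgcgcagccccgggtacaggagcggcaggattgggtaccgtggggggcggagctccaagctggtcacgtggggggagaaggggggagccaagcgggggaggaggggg
Klf2 (chr8:72318862-72319061, plus strand): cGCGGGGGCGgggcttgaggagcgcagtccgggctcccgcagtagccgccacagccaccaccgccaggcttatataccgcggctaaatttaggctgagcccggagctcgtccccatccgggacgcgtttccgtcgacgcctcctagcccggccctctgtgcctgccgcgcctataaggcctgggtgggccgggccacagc
Klf4 (chr4:55532476-55532675, minus strand): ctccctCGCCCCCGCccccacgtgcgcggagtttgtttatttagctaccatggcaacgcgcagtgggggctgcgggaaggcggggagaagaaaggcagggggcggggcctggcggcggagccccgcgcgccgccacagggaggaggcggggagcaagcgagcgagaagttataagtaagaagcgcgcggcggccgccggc
RefSeq promoters were matched for 7 of the 10 genes (those printed, Egr2 and Nr4a1); Egr1, Egr3 and Ier2 were the others. Motifs were searched on both strands over the 250 bases before the start. For Nr4a1 the start used lies inside the gene: its window ends at 101266845, and the gene spans 101253902 to 101274795. The Egr2 window ends at 67535498, inside its span of 67534469 to 67542188. The GC box GGGCGG, bound by SP and KLF proteins, was in 7 of 7, and in 57.1% of 11474 promoters of tested genes. The EGR motif GCGNGGGCG was in Klf2, Klf4 and Nr4a1, against 8.79% of promoters, and can overlap a GC box. The cyclic AMP response element TGACGTCA, bound by CREB, was in Dusp1, 143 to 136 bases before the start, against 2.66%. An NF-kB site was in Ier3, 92 to 83 bases before the start, against 4.56%. The CArG box of serum response factor (1.1% of promoters), the AP-1 motif TGANTCA (4.46%) and the TATA motif TATAAA (6.61%) matched none of the 7 in this window. A match describes letters in this window and no binding was measured.

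Read per kilobase on the authors' scale (nRPKM), which allows genes to be compared, Klf6 had the highest level of the 10 in every group, followed by Dusp1. In untreated cells the mean nRPKM was 36.4 for Klf6, 22.1 for Dusp1, 11.7 for Ier2, 10.3 for Ier3, 9.57 for Egr2, 9.2 for Egr1, 2.41 for Klf2, 1.95 for Nr4a1, 0.998 for Klf4 and 0.43 for Egr3. Egr2 and Egr1 were the neighbours whose libraries overlapped in untreated cells (9.42 and 9.71 against 8.95 and 9.45), as they did in the knockout. In the knockout the order was the same except that Klf4, at 1.77, stood above Nr4a1, at 1.55. With LPS, Ier3 at 70.3 passed Ier2 at 42.7, Egr1 at 10.6 stood 5 places above Egr3, and Egr2, at 1.85, came next to Klf4 at 1.65.

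**Figure D1:**
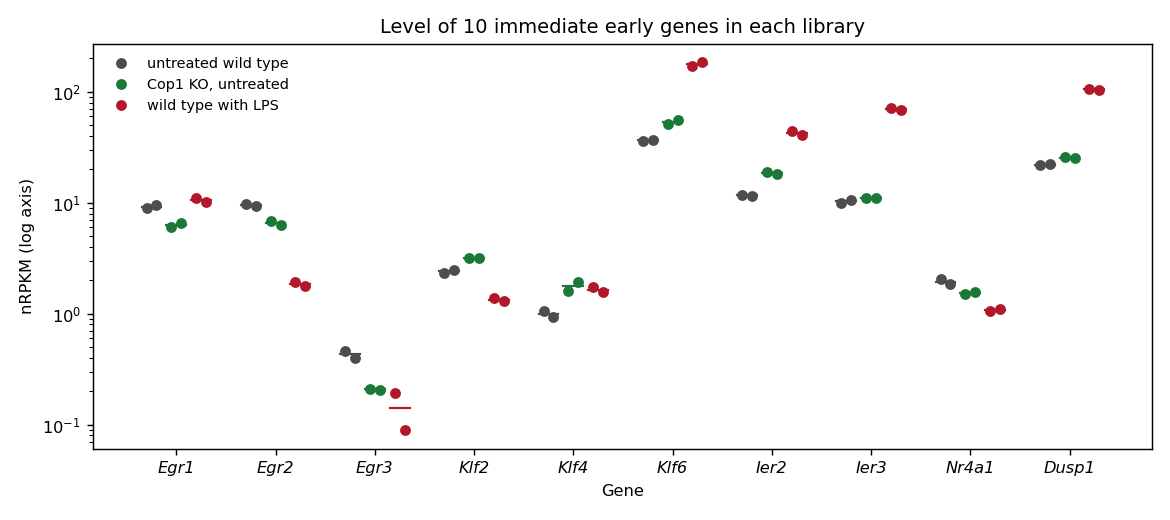
Level of each gene (nRPKM, log axis) in each of the 6 libraries, coloured by group; points are libraries and bars are group means. Klf6 is highest in every group, and the LPS points of Egr2 (mean 1.85) lie far below its untreated points (mean 9.57).

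The first comparison, of knockout with untreated wild type, asks how these RNAs differ in cells labelled Cop1 KO without a stimulus. Egr1, Egr2, Egr3 and Nr4a1 fell, and Klf4, Klf6 and Ier2 rose. Klf2, Ier3 and Dusp1 did not pass the test. Apart from Egr3, at 2.25-fold lower, every difference was below 2-fold. Differences were called below an adjusted p of 0.05 (edgeR quasi-likelihood test, Benjamini-Hochberg over all genes tested). The 7 genes called compare with 58.4% of all genes, the 3 higher with 28.1% and the 4 lower with 30.3%, so the share called is near that of all genes. Decreases of at least 2-fold were called for 1 gene, against 14.5% of all genes, and rises of that size for none, against 3.3%. Knockout and untreated libraries did not overlap in 9 of the 10 genes, against 77.4% of all genes. The median log2 fold change was 0.02 over the 10 genes and −0.01 over all genes.

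Egr1 (Entrez 13653, chromosome 18, 34861207 to 34864956), Egr2 (13654, chromosome 10, 67534469 to 67542188) and Egr3 (13655, chromosome 14, 70077317 to 70082613) encode zinc finger transcription factors that bind GC-rich sites and whose activity is limited by the NAB corepressors. Egr1 was at 40.64 and 42.91 CPM in untreated and at 25.35 and 26.93 CPM in knockout libraries. Both knockout libraries were below both untreated ones, by 37.4% (log2 fold change −0.68, SE 0.07, edgeR adjusted p = 1.4e-12). Egr2 was at 55.56 and 53.91 CPM in untreated and at 36.20 and 32.93 CPM in knockout libraries. This was a decrease of 36.9%, again without overlap (log2 fold change −0.66, SE 0.06, edgeR adjusted p = 3e-13). Egr3 was rare, with 71 and 65 counts in untreated libraries and 26 in each knockout library. Its fold change was the least precise of the 10 (log2 fold change −1.17, SE 0.28, edgeR adjusted p = 0.00024), and DESeq2 did not call it (−1.09, adjusted p = 0.056).

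Klf2 (16598, chromosome 8, 72319062 to 72321654), Klf4 (16600, chromosome 4, 55527137 to 55532475) and Klf6 (23849, chromosome 13, 5861489 to 5870393) belong to the Krüppel-like zinc finger factors, of which Klf2 is known to restrain inflammatory gene expression in myeloid cells and Klf4 to act in monocyte differentiation. Klf4 was at 4.802 and 4.176 CPM in untreated and at 6.573 and 7.946 CPM in knockout libraries. It rose 1.62-fold (log2 fold change 0.70, SE 0.15, edgeR adjusted p = 5.8e-05), with the knockout libraries further apart than the untreated ones. Klf6 was at 224.2 and 229.8 CPM in untreated and at 294.5 and 314.6 CPM in knockout libraries, a 1.34-fold rise (log2 fold change 0.42, SE 0.04, edgeR adjusted p = 3e-15). Klf2 was at 6.231 and 6.711 CPM in untreated and at 7.834 and 7.769 CPM in knockout libraries. The groups did not overlap, but the difference missed the threshold (1.2-fold, edgeR adjusted p = 0.079); median-of-ratios scaling called it (log2 fold change 0.36, adjusted p = 0.018).

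Ier2 (15936, chromosome 8, 84661331 to 84662852) encodes a nuclear protein of the immediate early response, and Ier3 (15937, chromosome 17, 35821713 to 35822911) a regulator of cell survival induced by NF-kB. Ier2 was at 26.47 and 26.06 CPM in untreated and at 39.08 and 37.34 CPM in knockout libraries, a 1.45-fold rise (log2 fold change 0.54, SE 0.07, edgeR adjusted p = 4.2e-10). Ier3 was at 15.99 and 17.15 CPM in untreated and at 16.16 and 16.38 CPM in knockout libraries. The knockout values lay inside the untreated range, and the 95% interval of the fold ran from 0.875 to 1.10 (edgeR adjusted p = 0.8). The sign of this difference changed with the scaling, and library size alone called it lower (log2 fold change −0.22, adjusted p = 0.019).

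Nr4a1 (15370, chromosome 15, 101253902 to 101274795) encodes the orphan nuclear receptor Nur77, and Dusp1 (19252, chromosome 17, 26505591 to 26508472) the phosphatase MKP-1, which inactivates p38 and JNK. Nr4a1 was at 15.20 and 13.76 CPM in untreated and at 10.36 and 10.73 CPM in knockout libraries. The decrease of 27.1% was called by edgeR (log2 fold change −0.46, SE 0.10, adjusted p = 0.00013) and not by DESeq2 (−0.37, adjusted p = 0.077). Dusp1 was at 62.27 and 64.61 CPM in untreated and at 67.71 and 66.04 CPM in knockout libraries. The groups did not overlap, yet the difference of 5.37% missed the threshold (edgeR adjusted p = 0.16). Median-of-ratios scaling called Dusp1 higher (log2 fold change 0.16, adjusted p = 0.0023) and library size alone called it lower (−0.12, adjusted p = 0.026), so its direction in the knockout depends on the scaling.

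**Figure D2:**
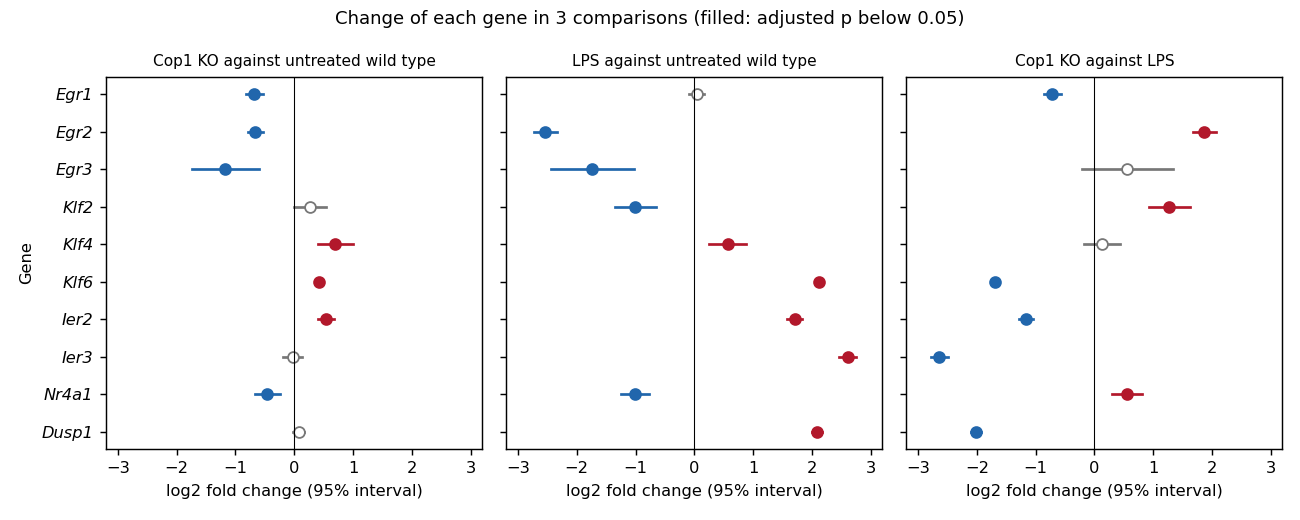
Log2 fold change of each gene (points) with its 95% interval (lines) in the 3 comparisons from the edgeR fit; filled points have an adjusted p below 0.05, red for higher and blue for lower. Egr1 is lower in the knockout (−0.68) and near 0 with LPS (0.04), while Ier3 is near 0 in the knockout (−0.03) and 2.61 with LPS.

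The second comparison, of LPS-treated with untreated wild type, shows how these RNAs differ between wild-type libraries with and without a microbial stimulus. Ier3, Klf6, Dusp1 and Ier2 rose between 3.27-fold and 6.10-fold, and Klf4 rose 1.48-fold. Egr2, Egr3, Nr4a1 and Klf2 fell between 2.01-fold and 5.78-fold. Egr1 did not pass the test. The 9 genes called compare with 73.7% of all genes, the 5 higher with 30.2% and the 4 lower with 43.4%. Changes of at least 2-fold were called for 8 of the 10, 4 in each direction, against 33.1% of all genes (14.9% higher and 18.2% lower). LPS and untreated libraries did not overlap in 9 of the 10 genes, against 85.7%. The median log2 fold change was 0.30 over the 10 genes and −0.18 over all genes. This comparison and the first share the untreated libraries.

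The 3 EGR genes did not move alike with LPS. Egr1 was at 44.66 and 41.23 CPM with LPS, around its untreated values of 40.64 and 42.91 CPM. The 95% interval of its fold ran from 0.938 to 1.13 (log2 fold change 0.04, SE 0.07, edgeR adjusted p = 0.59). Its call depended on the scaling: median-of-ratios factors called it higher (log2 fold change 0.18, adjusted p = 0.013) and library size alone called it lower (−0.52, adjusted p = 4e-10), and relative to the median gene it was 0.22 with TMM. Egr2 was at 9.838 and 9.055 CPM with LPS, far below its untreated 55.56 and 53.91 CPM. The 5.78-fold decrease was the largest among the 10 genes (log2 fold change −2.53, SE 0.10, edgeR adjusted p = 1.3e-32). Egr3 had 19 and 8 counts with LPS, or 1.062 and 0.4829 CPM, and fell 3.33-fold (log2 fold change −1.73, SE 0.35, edgeR adjusted p = 3.6e-06). The size of this fall rested on few counts: the log2 fold change was −2.43 without LPS replicate 1 and −1.29 without LPS replicate 2, and both were called.

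Among the KLF genes, Klf6 reached 945.1 and 1024 CPM with LPS, from 224.2 and 229.8 CPM. This 4.34-fold rise had the smallest error of the 10 genes (log2 fold change 2.12, SE 0.03, edgeR adjusted p = 6.6e-47). Klf2 went the other way, to 3.298 and 3.139 CPM from 6.231 and 6.711 CPM (log2 fold change −1.01, SE 0.17, edgeR adjusted p = 5.1e-07). Klf4 was at 6.931 and 6.339 CPM with LPS, above its untreated 4.802 and 4.176 CPM (log2 fold change 0.57, SE 0.16, edgeR adjusted p = 0.0012). With library size alone the Klf4 difference was 0.00 (adjusted p = 0.98).

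Ier3 showed the largest rise, to 103.4 and 98.82 CPM from 15.99 and 17.15 CPM (6.10-fold, log2 fold change 2.61, SE 0.07, edgeR adjusted p = 2.1e-38). Ier2 reached 89.04 and 82.58 CPM from 26.47 and 26.06 CPM (3.27-fold, log2 fold change 1.71, SE 0.06, edgeR adjusted p = 3.3e-31). Dusp1 reached 274.3 and 265.4 CPM from 62.27 and 64.61 CPM (4.25-fold, log2 fold change 2.09, SE 0.04, edgeR adjusted p = 2.9e-43). LPS and untreated libraries did not overlap in any of these 3 genes. Nr4a1, in contrast, was at 6.987 and 7.365 CPM with LPS, about 50.4% below its untreated 15.20 and 13.76 CPM (log2 fold change −1.01, SE 0.12, edgeR adjusted p = 4.9e-11).

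Set directly against the LPS libraries, the knockout libraries differed in 8 of the 10 genes, compared with 79.6% of all genes. Egr2 was 3.65-fold, Klf2 2.42-fold and Nr4a1 1.47-fold higher in the knockout (3 higher, background 39.9%). Ier3 was 6.21-fold, Dusp1 4.04-fold, Klf6 3.23-fold, Ier2 2.25-fold and Egr1 1.64-fold lower in the knockout (5 lower, background 39.6%). At least 2-fold, 2 were called higher, against 17.5% of all genes, and 4 lower, against 24.2%, and in 9 of 10 genes the groups did not overlap, against 88.5%. Klf4 was at 6.573 and 7.946 CPM in the knockout and at 6.931 and 6.339 CPM with LPS. These groups overlapped, and the 95% interval of the fold ran from 0.889 to 1.35 (edgeR adjusted p = 0.43). Egr3 was not called either (1.48-fold, interval 0.861 to 2.53, edgeR adjusted p = 0.17), but without LPS replicate 1 it was higher in the knockout (log2 fold change 1.26, adjusted p = 0.032). This comparison contrasts genotype and treatment together.

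Ratios of 2 genes within a library do not depend on how libraries are scaled. The pairs below are a selection. Their ratios restate the changes of single genes given above and are no separate evidence that the LPS libraries differ. The nRPKM ratio of Egr1 to Egr2 was 0.922 and 1 in untreated, 0.883 and 1.03 in knockout and 5.72 and 5.74 in LPS libraries. Untreated and knockout ratios overlapped, so the balance of Egr1 and Egr2 could not be distinguished between them while both genes were lower in the knockout. Egr1 made up 47.9% ± 1.58 (SD, n = 2) of the summed EGR level in untreated, 48.0% ± 2.70 in knockout and 84.2% ± 0.477 in LPS libraries. The ratio of Klf6 to Klf2 was 15.5 and 14.7 in untreated, 16.2 and 17.4 in knockout and 123 and 140 in LPS libraries. Klf6 already made up 91.4% of the summed level of the 3 KLF genes in untreated cells, and 98.3% with LPS. The ratio of Dusp1 to Nr4a1 was 10.6 and 12.2 in untreated, 17.0 and 16.0 in knockout and 102 and 93.4 in LPS libraries, with no overlap between groups. The ratio of Ier3 to Ier2 was 0.844 and 0.919 in untreated, lay below that range at 0.578 and 0.612 in the knockout, and was 1.62 and 1.67 with LPS. With 2 libraries a group, an exact two-sided permutation test of a single ratio cannot go below p = 0.333, so these ratios are given as values.

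**Figure D3:**
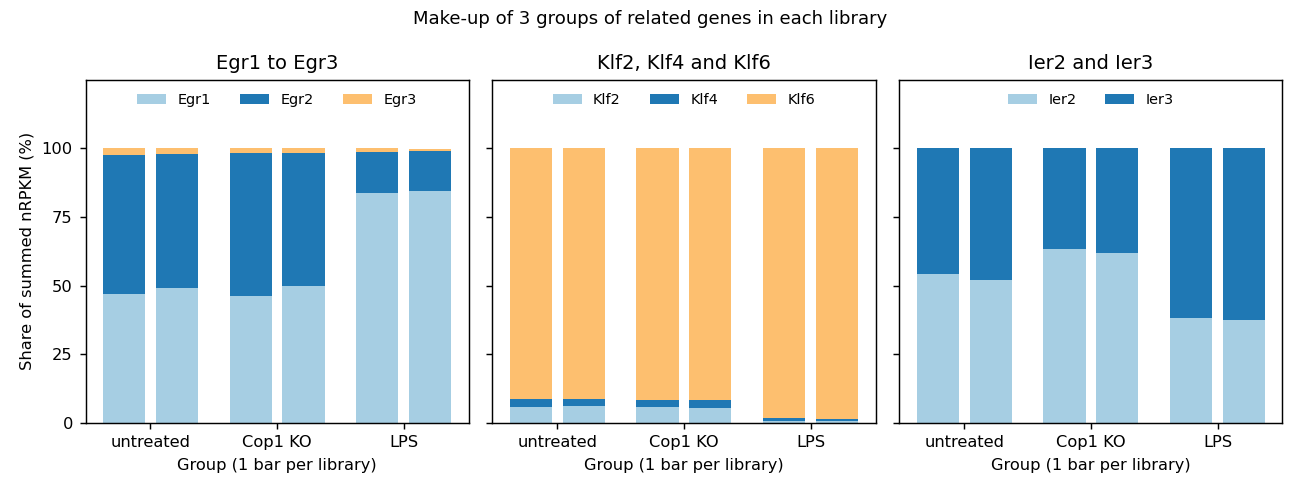
Share of the summed nRPKM (percent) taken by each gene within the EGR, KLF and IER groups, with 1 stacked bar per library. Egr1 takes 84.2% on average with LPS against 47.9% in untreated cells, and Klf6 takes 98.2% and 98.5% in the LPS libraries.

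The scaling factors differed between groups: TMM factors were 1.19 in untreated, 1.04 in knockout and 0.806 in LPS libraries. The median log2 fold change of tested genes with LPS was −0.18 with TMM, −0.04 with median-of-ratios factors and −0.74 with library size alone. In the knockout it was −0.01, 0.08 and −0.20. Of the genes called with LPS, 41.1% were higher with TMM, 49.6% with median-of-ratios factors and 19.9% with library size alone. In the knockout these shares were 48.1%, 58.4% and 24.4%. Egr1, Egr2, Egr3 and Nr4a1 were lower, and Klf4, Klf6 and Ier2 higher, in the knockout under each scaling drawn. With LPS, Egr2, Egr3, Klf2 and Nr4a1 were lower and Klf6, Ier2, Ier3 and Dusp1 higher under each of them.

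**Figure D4:**
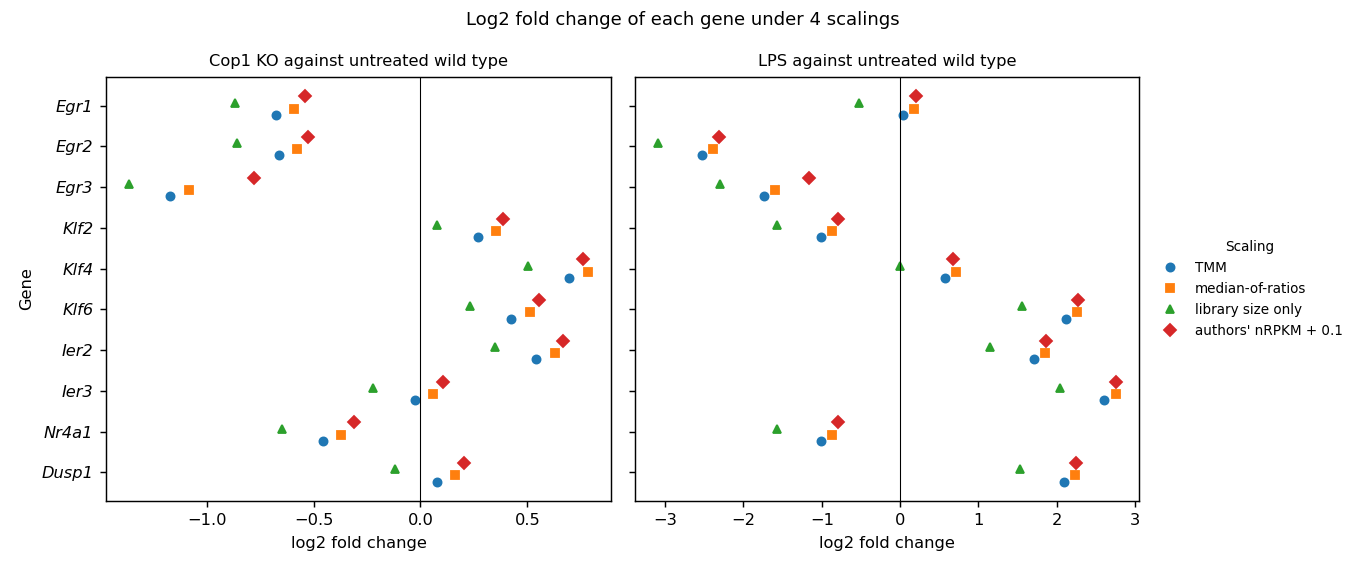
Log2 fold change of each gene in the knockout (left) and with LPS (right) under TMM, median-of-ratios, library size and the authors' nRPKM plus 0.1. Ier3 and Dusp1 in the knockout and Egr1 with LPS have points on both sides of 0, and Egr1 with LPS runs from −0.52 to 0.20.

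Other genes of the immediate early response also moved in both directions. Of 42 listed, 41 were tested. In the knockout 18 rose and 14 fell, and with LPS 22 rose and 15 fell (median log2 fold changes 0.10 and 0.42). Of all genes tested, 28.1% rose and 30.3% fell in the knockout, and 30.2% rose and 43.4% fell with LPS. These shares also stand beside the list counts that follow, and whether any list departs from them was not tested. In the knockout the matricellular gene Ccn2 rose from a mean of 9.351 to 35.25 CPM (log2 fold change 1.92, edgeR adjusted p = 1.8e-25), and the survival gene Mcl1 (0.89), Ier5 (0.79) and the small Maf factor Mafk (0.64) also rose. Npas4 (−1.49), the growth regulator Myc (−0.95), the helix-loop-helix inhibitor Id1 (−0.94) and the G protein regulator Rgs1 (−0.52) fell in the knockout. With LPS, Dusp2, a nuclear MAP kinase phosphatase, rose from a mean of 0.6344 to 283.9 CPM, and Gadd45b from 9.686 to 332 CPM. Csrnp1 (log2 fold change 3.23) and the small GTPase Gem (2.88) rose too. Zfp36l2 (−2.89), Myc (−1.92), Npas4 (−1.91) and Fos (−1.89), a subunit of AP-1, fell with LPS.

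Of 14 other KLF genes 10 were tested; 2 rose and 3 fell in the knockout, and 3 rose and 6 fell with LPS. Klf9, a glucocorticoid-responsive factor, fell in the knockout from 9.238 to 3.432 CPM (log2 fold change −1.43, edgeR adjusted p = 6.4e-12), whereas Klf13 rose by 0.29. With LPS, Klf7 rose (log2 fold change 1.12) while Klf11 (−1.63) and Klf10 (−1.46), both inducible by TGF-beta, fell. Among the 9 MAP kinase phosphatases other than Dusp1, 3 rose and 4 fell in the knockout, and 4 rose and 4 fell with LPS. The LPS risers were Dusp2 (log2 fold change 8.79), Dusp5 (2.69), Dusp16 (2.26) and Dusp10 (1.603). Dusp6 (−1.41) and Dusp7 (−0.62) were among those that fell. In the knockout Dusp8 (−1.07) and Dusp4 (−0.30) fell and Dusp7 rose by 0.31. The knockout calls of Dusp4, Dusp7 and Klf13 did not hold in every alternative fit. Over these fits the log2 fold change ran from −0.493 to −0.153 for Dusp4, 0.115 to 0.436 for Dusp7 and 0.093 to 0.413 for Klf13.

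The EGR corepressors Nab1 and Nab2 moved apart in the knockout, with log2 fold changes of 0.33 and −0.26, and both rose with LPS, by 1.45 and 0.32. Of 23 upstream kinases and transcription factors, 12 rose and 5 fell in the knockout, and 6 rose and 14 fell with LPS. The kinase gene Mapk7 (log2 fold change 0.53), the p38 gene Mapk14 (0.44) and the SRF coactivator Mrtfa (0.37) rose in the knockout. With LPS the p38 target kinase Mapkapk2 rose from a mean of 188.1 to 1203 CPM and Map2k1, the gene of MEK1, from 130.1 to 464 CPM. The factors Mef2c (log2 fold change −2.45) and Mef2d (−1.69) and the coactivator Mrtfb (−1.69) fell with LPS. Each list in these paragraphs held genes that moved in each direction, except the NAB pair with LPS. The genes tested as a whole also moved in each direction.

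**Figure D5:**
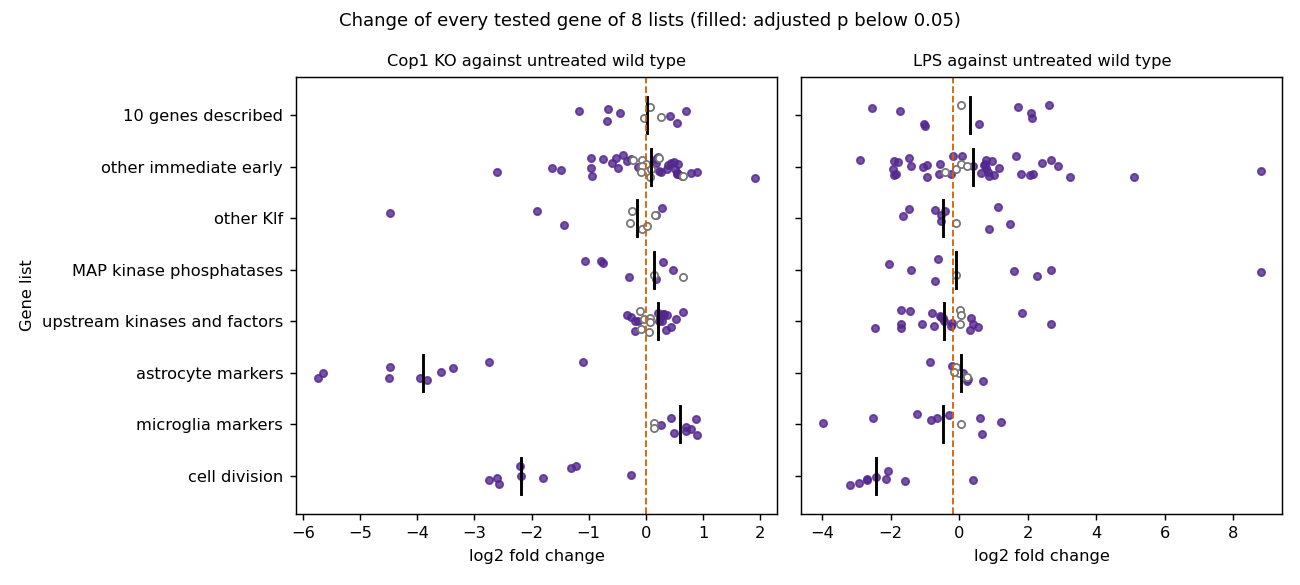
Log2 fold change of every tested gene in 8 lists, for the knockout (left) and LPS (right); filled points have an adjusted p below 0.05, black bars are list medians and the dashed line is the median of all genes. The 10 genes lie on both sides of 0 in both comparisons, and all 10 astrocyte markers are lower in the knockout.

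The 3′ untranslated regions were searched for TATTTAT, the AU-rich heptamer bound by ZFP36 proteins, which destabilise short-lived RNAs. In the longest annotated region of each gene (GENCODE M21), Ier3 held 4 copies, Dusp1 3, Klf6 2 and Klf2 1, and the other 6 genes none. As many copies as in Ier3 occurred in 0.523% of 1531 regions of like length, as in Dusp1 in 1.12% of 1608, as in Klf6 in 21.3% of 1780 and as in Klf2 in 19.4% of 1652. Copies can overlap. The following sites are shown because 3 belong to genes that rose with LPS and the last to a gene that fell. Capitals mark 1 copy of the heptamer per line, and the Ier3 line also holds its next copy in lower case.
Ier3 (chr17:35822481-35822509, plus strand): tgtctaattaaTATTTATgtatttatgta
Dusp1 (chr17:26506159-26506187, minus strand): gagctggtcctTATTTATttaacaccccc
Klf6 (chr13:5868943-5868971, plus strand): cacaccggctgTATTTATtatgtaacatt
Klf2 (chr8:72320988-72321016, plus strand): aaacagactgcTATTTATtggaccttagg
Beside these, Zfp36, the gene of tristetraprolin, rose with LPS from a mean of 179.6 to 563.1 CPM (log2 fold change 1.65). The related Zfp36l1 and Zfp36l2 fell with LPS, from means of 44.71 to 16.92 CPM (−1.40) and of 227.5 to 30.76 CPM (−2.89). In the knockout all 3 rose, by 0.23, 0.50 and 0.57, but Zfp36 was not called there with library size alone (0.04, adjusted p = 0.38). Zfp36 and Zfp36l1 are named here after their values were seen. RNA stability was not measured.

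Genes whose pattern over the 6 libraries was nearest to each of the 10 were found by the root mean square difference of centred log2 CPM among the 8759 genes whose mean reached 10 CPM. Egr1 was nearest to Sipa1l1 (0.028) and Zcchc24 (0.033), and Egr2 to Reps2 (0.077) and Hyal1 (0.081). Klf6 was nearest to Rbm43 (0.032) and Tlr9 (0.049), Ier2 to Mvp (0.039) and Macir (0.045), and Ier3 to Rap2c (0.052) and Aldh1b1 (0.063). Klf2 was nearest to Cep164 (0.023), Klf4 to Slc25a28 (0.088), Nr4a1 to Herc3 (0.048) and Dusp1 to Rap1b (0.044). Egr3 had no near partner, its nearest being Nkain1 (0.233), but its 8 to 71 counts per library leave its pattern imprecise. Within a difference of 0.1 lay 178 genes for Klf2, 52 for Nr4a1, 22 for Egr1, 5 each for Egr2 and Klf4 and none for Egr3. These values describe 6 libraries in 3 groups, and likeness says nothing of shared control.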

How the data were processed

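Libraries were made from polyadenylated RNA with a kit that does not keep strand and read as single ends, per the labels' protocols. Reads were aligned with GSNAP to GRCm38, per the submitters' processing notes; a GSNAP version is not given in the sources used here. Deposited count values are uniquely aligned reads per gene, per the file headers. The deposited RPKM values (nRPKM) carry a size factor that the authors applied to each sample, per the file headers, and serve here to compare levels between genes. Of 36528 identifiers, 31049 were named from RefSeq; rows with no name held 1.075% to 1.307% of counts and, since each carries an identifier, stayed in the tests.

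Counts were filtered with filterByExpr, scaled by TMM and fitted with edgeR 4.0.16 (glmQLFit, glmQLFTest, R 4.3.3) over all 6 libraries, with 3 residual degrees of freedom. Groups follow the treatment labels. The Benjamini-Hochberg adjustment covered 15585 genes. The fit was tested on simulated data in which few genes changed in the knockout and none with LPS. That test therefore does not cover how the scaling affects the calls. Alternatives were median-of-ratios factors, library size, no filter, DESeq2 1.42.0, only the groups compared, limma 3.58.1 on log2 nRPKM plus 1 or 0.1, and leaving out each library. A fold change from nRPKM is on the log2(value + pseudocount) scale. The 10 genes and the lists were chosen with earlier results of these data known. From each list, up to 4 called genes per direction with the largest change and a mean of at least 5 CPM in a compared group were eligible to be named. The kit keeps no strand; 11 exonic bases of Dusp1 (0.332%) overlap Ergic1 on the opposite strand, and no overlap was found for the other 9 genes. Tables and sequences were handled with Python 3.11.15.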

Additional observations from a re-analysis of the deposited data

How the results depend on the processing

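In the knockout, 5 of the 10 genes were higher with median-of-ratios factors and in each of the 3 limma fits on nRPKM, against 3 with TMM, because Klf2 and Dusp1 were then called; of all genes tested, 35.2% were higher with median-of-ratios factors, 21.4% to 41.1% in the limma fits and 28.1% with TMM. Only 2 were lower with DESeq2 and with limma on nRPKM plus 0.1, against 4, because Egr3 (−1.09, adjusted p = 0.056, and −0.78, adjusted p = 0.072) and Nr4a1 (−0.37, adjusted p = 0.077, and −0.31, adjusted p = 0.068) lost their calls; of all genes tested, 16.7% and 13.7% were lower in these fits, against 30.3% with TMM. Against LPS, 5 genes were higher in the knockout with library size alone, against 3, with Egr3 and Klf4 added, while the share of all genes called higher went from 39.9% to 54.3%. Signs that turned in the knockout were those of Ier3 (0.059 with median-of-ratios factors and DESeq2, 0.095 with limma on nRPKM plus 1, filtered or not, and 0.103 with plus 0.1), and with library size alone Dusp1 (−0.117), Dusp6 (−0.024) and Klf3 (−0.024). With LPS and library size alone, Egr1 (−0.523), Braf (−0.026), Map2k2 (−0.169), Nab2 (−0.244) and Pcna (−0.16) turned. Beyond the scale factors themselves, the cause was not tested. On leaving out each library, Ier3 in the knockout ranged from −0.075 to 0.027, Egr1 with LPS from −0.02 to 0.098 and Klf4 against LPS from −0.008 to 0.271, Egr3 with LPS from −2.425 to −1.294 and Egr3 against LPS from 0.126 to 1.257; the 10 genes gave 3 higher and 4 lower in the knockout and 5 and 4 with LPS in each such fit, and all-gene calls ranged from 7705 to 9396 and from 10666 to 11721. The knockout call of Cop1 was lost in the limma fits on nRPKM (adjusted p = 0.15, 0.097 and 0.074). Depth limits Egr3 most, at 8 to 71 counts per library. No paired analysis was possible because the labels give no replicate numbers that groups share.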

Other observations

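Most of the 10 genes are short. From the first to the last annotated base, Ier3 spans 1199 bases, Ier2 1522, Klf2 2593, Dusp1 2882 and Egr1 3750, against a median of 24435 over 13436 tested coding genes, and Nr4a1 is the longest at 20894. Short genes were found among those that rose with LPS (Ier3, Ier2 and Dusp1) and those that fell (Klf2).

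The EGR motif GCGNGGGCG was present in the promoter windows of Klf2, Klf4 and Nr4a1, whose changes differed: with LPS Klf4 rose (log2 fold change 0.57) while Klf2 (−1.01) and Nr4a1 (−1.01) fell, and in the knockout Klf4 rose (0.70), Nr4a1 fell (−0.46) and Klf2 was not called (0.27).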
